A study of Mus musculus with 2 samples.

Results

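The genes described here are 50 genes of DNA replication, chosen by name for their roles in origin licensing, at the replication fork, in the supply of deoxynucleotides and in the packaging of the copied DNA. All 50 have a value in the deposited table, among 19503 genes that could be named. The table holds 2 Affymetrix whole-transcript arrays of cerebellum from Tg(Pcp2-L10a-Egfp) mice at postnatal day 7. In these mice the promoter of the Purkinje cell gene Pcp2 drives a fusion of the ribosomal protein L10a with green fluorescent protein. In the TRAP sample, short for translating ribosome affinity purification, RNA was recovered from antibody-coated beads that hold the tagged ribosomes. The unbound sample is the RNA that the beads left in the lysate. Both groups carry the transgene, and the labels distinguish them by the fraction taken. Cerebella were pooled, and the sources used here do not give the number of animals, the strain, the sex or whether both fractions came from 1 pool. With 1 array for each fraction, no difference has a replicate check or an error, and no test was made.

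A dividing cell loads the MCM helicase onto origins in G1, with the origin recognition complex, Cdc6 and Cdt1 as loaders, and starts it in S phase with Cdc45 and the GINS complex. Primase and the DNA polymerases then copy the strands, held by the sliding clamp PCNA, while replication protein A coats single-stranded DNA and ribonucleotide reductase and thymidylate synthase make the building blocks. In the first postnatal weeks the main dividing population of the mouse cerebellum is the granule neuron progenitors of the external granule layer, whereas Purkinje cells have left the cell cycle before birth. Glial progenitors and progenitors of inhibitory interneurons also divide at this age.

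Values are expression values as deposited, taken as log2 although the sources used here do not state the log base. A difference is the TRAP value minus the unbound value, so that negative differences mean more signal in the unbound RNA. A difference of 1, which is 2-fold, was used as the size that counts. Pcp2 read 12.98 in TRAP and 11.65 in unbound. All 14 Purkinje cell markers with a value were higher in TRAP, and for 8 the difference reached 2-fold. The table gives no detection calls. The median of all values of both arrays, 7.08, serves below only as a mark of low level, since folds that start from values near or under it are uncertain.

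Replication genes as a group read higher in the unbound RNA. Of the 50 genes, 42 had a lower value in TRAP, as did 8175 of all 19503 genes. For 23 of the 42 the difference was at least 2-fold, a size that 11.0% of all genes of the table reached toward unbound. One gene, Ccne1, was at least 2-fold higher in TRAP, a direction that 4.58% of all genes showed at that size. At 1.5-fold the counts were 32 toward unbound and 1 toward TRAP, against 19.5% and 12.5% of all genes, and at 4-fold they were 9 and 0, against 2.37% and 0.4%. The median difference of the 50 genes was -0.98, a 1.97-fold higher level in unbound, while the median over all genes was 0.10. The differences ran from -2.86 for Rrm2 to 1.01 for Ccne1. On the unbound array 45 of the 50 genes lay above the median of all values and on the TRAP array 29 did. For 16 genes only the unbound value lay above that mark, and 5 genes (Orc1, Cdc6, Gmnn, Gins1 and Pola1) were under it on both arrays. Of all 19503 genes, 10004 lay above the mark in unbound and 9277 in TRAP. Only the unbound value did for 1247 of them, and neither value did for 8979. Among genes whose mean of both arrays lay above the mark, 18 of 42 replication genes and 16.8% of all genes were 2-fold or more higher in unbound, and 1 and 8.1% in TRAP. Of these 42 genes, 13 had a TRAP value under the mark. With both values required to lie above it, a choice made after the data were seen that drops genes because their TRAP value is low, 8 of 29 replication genes and 13.0% of all genes were 2-fold or more higher in unbound, and 1 and 7.94% in TRAP. The median difference of those 29 genes was -0.38, which is 1.31-fold, and -0.05 with the array medians subtracted. Of the 23 genes past 2-fold toward unbound, 15 had a TRAP value under the mark, so their folds are uncertain in size. In pooled tissue RNA, fewer dividing cells and less of a transcript per cell cannot be told apart. A difference between bead-bound RNA and the RNA left in the lysate measures neither.

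**Figure D1:**
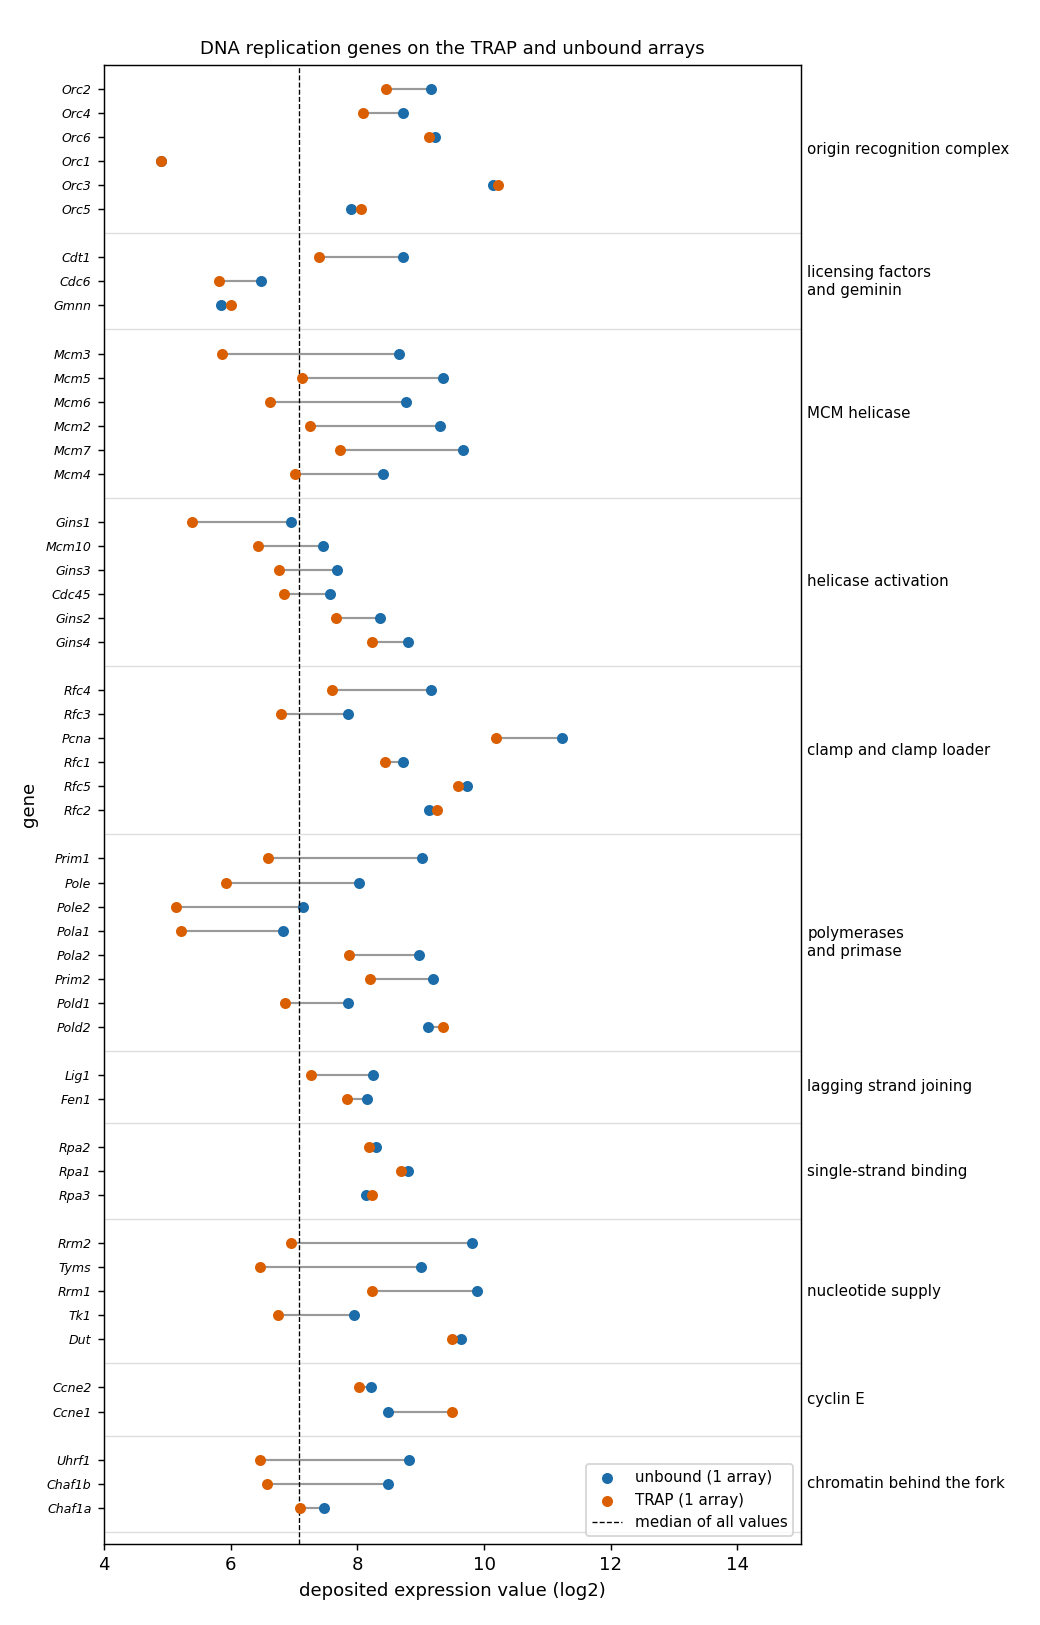
Deposited value, taken as log2 (horizontal axis), of each of the 50 replication genes on the TRAP array (orange) and the unbound array (blue). Genes are grouped by role and ordered by difference within each role. The dashed line is the median of all values, 7.08. All 6 MCM helicase genes have unbound points well to the right of their TRAP points, while the points of the origin recognition complex and of the single-strand binding genes lie close together.

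The scaling of the arrays moves every difference a little, because the median of the TRAP array is 0.33 lower than that of the unbound array. Subtracting each array's median shifted the median difference of all genes from 0.10 to 0.43. With that scaling 6.8% of all genes passed 2-fold toward unbound and 10.1% toward TRAP. The shares were 8.6% and 6.67% after quantile normalization and 10.0% and 5.31% after a loess trend on level was removed. Of the 23 replication genes 2-fold or more higher in unbound, 18 passed that size under each of the 4 scalings. The other 5 were Mcm10, Pcna, Rfc3, Pola2 and Tk1. Across the 50 genes, 34 had a negative difference under all 4 scalings, 7 a positive one, and 9 changed sign or stood at 0 under 1 of them. Over all 19503 genes these counts were 5236, 9451 and 4816. Of all genes, 1326 were 2-fold or more higher in unbound under each of the 4 scalings.

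The origin recognition complex, the 6-subunit platform that marks origins, differed little between the fractions. None of its 6 genes was 2-fold apart and their median difference was -0.04, which became 0.29 with the array medians subtracted. Orc2 read 8.46 in TRAP and 9.17 in unbound, and Orc4 read 8.09 and 8.72. These 2 subunits were lower in TRAP under every scaling, by 0.71 and 0.63 as deposited. Orc3, at 10.22 and 10.14, and Orc5, at 8.05 and 7.90, had slightly higher TRAP values under every scaling. Orc6, the smallest subunit, read 9.13 and 9.22, a difference whose sign depends on the scaling. Orc1, the subunit whose level follows the cell cycle in dividing cells, read 4.89 on both arrays. Its value is identical on both arrays to the last decimal, as for 112 of the 22097 probe sets, whose median level was 4.69. No difference can be read for Orc1, although the medians above include it.

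The factors that load the helicase did not move together. Cdt1, which brings the MCM ring to origins, read 7.39 in TRAP and 8.73 in unbound, 2.53-fold higher in the latter, and stayed past 2-fold under each scaling. Cdc6, the loading ATPase, read 5.81 and 6.48. Gmnn, encoding geminin, the inhibitor that holds Cdt1 in check after S phase starts, read 5.84 in unbound and 0.16 higher in TRAP. Cdc6 and Gmnn had low values on both arrays, and neither reached 2-fold.

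All 6 genes of the MCM helicase had more than 2-fold higher values in the unbound RNA. Mcm2 to Mcm7 encode the 6 different subunits of the ring that unwinds DNA. Mcm3 read 5.86 in TRAP and 8.65 in unbound, 6.90-fold apart from a low TRAP value. Mcm5 read 7.13 and 9.36, a 4.68-fold difference. Mcm6 read 6.62 and 8.77, a 4.44-fold difference. Each of these unbound values lay far above the TRAP value of the same gene. Mcm2 read 7.26 and 9.30, 4.12-fold higher in unbound, and Mcm7 read 7.73 and 9.67, 3.82-fold higher. Mcm4 showed the smallest difference of the ring, with 7.01 and 8.41, a 2.63-fold difference. All 6 passed 2-fold under each of the 4 scalings, with a median of -2.10 as deposited and -1.77 with the array medians subtracted. The TRAP values of Mcm3, Mcm4 and Mcm6 lay under the median of all values.

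Many replication genes are textbook targets of the E2F transcription factors, so their start regions were searched for the E2F words TTTCCCGC, TTTCGCGC, TTTGCCGC and TTTGGCGC on both strands. The windows run from 250 bases before to 50 bases after annotated starts in RefSeq on GRCm38.p6, and 41 of the 50 genes have an entry. A word was present for 15 of the 41 genes, 36.6%, against 3.50% of the 15285 genes of the table with an entry and 2.26% of all 32851 windows. In lists described below, 9 of 30 other replication and fork genes (30.0%) and 8 of 22 G1/S regulators (36.4%) held a word. Of the mitosis genes with an entry, 2 of 25 (8.0%) did. The replication genes' windows had a median GC content of 63.0%, against 58.7% for all genes of the table. Among the 5358 genes at or above 63.0% GC, 5.10% held a word. A word stood in the window of 4 of the 5 MCM ring genes with an entry (Mcm3, Mcm5, Mcm6 and Mcm7), of both licensing factors with one (Cdc6 and Cdt1), and of Orc1, Orc3, Gins3, Rfc3, Pola1, Pold1, Pole2, Lig1 and Uhrf1. None of the 5 nucleotide supply genes and none of the 3 single-strand binding genes had one. Some windows with a word belong to annotated starts inside the gene, by 3749 bases for Orc1, 976 for Uhrf1 and 442 for Cdc6. A match is a run of letters and does not show binding, and a window without one says nothing about the factor.

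The start regions below are shown because they carry the words outside any annotated gene. Mcm5 and Mcm6 were over 4-fold higher in unbound, Rfc3 differed by 2.08-fold and Gins3 fell short of 2-fold. Each sequence reads 5′ to 3′ on the strand of the gene, from the part before the start, with the words in capitals; where words on opposite strands overlap, the capitals cover both.
Mcm5 (GRCm38.p6, chr8:75109320-75109403, plus strand): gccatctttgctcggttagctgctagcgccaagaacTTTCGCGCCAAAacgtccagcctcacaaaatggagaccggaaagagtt
Mcm6 (GRCm38.p6, chr1:128359709-128359851, minus strand): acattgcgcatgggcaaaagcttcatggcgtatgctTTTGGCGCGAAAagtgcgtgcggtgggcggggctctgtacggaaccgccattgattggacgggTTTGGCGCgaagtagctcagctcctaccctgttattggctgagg
Rfc3 (GRCm38.p6, chr5:151651209-151651288, minus strand): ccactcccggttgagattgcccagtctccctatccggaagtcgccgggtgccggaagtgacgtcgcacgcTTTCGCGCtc
Gins3 (GRCm38.p6, chr8:95633479-95633558, plus strand): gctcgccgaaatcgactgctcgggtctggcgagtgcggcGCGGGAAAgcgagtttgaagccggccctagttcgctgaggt
In Mcm5 and in Mcm6 a forward and a reverse word overlap, and Mcm6 holds another forward word 47 bases before its start. Rfc3 has a word that begins 10 bases before the start, and another on the reverse strand that begins 1 base after it and is not shown. The word of Gins3 lies on the reverse strand, 41 bases before the start.

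Genes with a word and genes without one overlapped in their differences. Of the 15 genes with a word, 9 were 2-fold or more higher in unbound, and the median difference was -1.34. Of the 26 genes with an entry and no word, 11 were, with a median of -0.67. Over all genes of the table with an entry, 106 of the 535 with a word were 2-fold or more higher in unbound. Of all 15285 with an entry, 1710 were. The split of the replication genes by word was not tested. Orc3 has a word and nearly equal values on both arrays, whereas Rrm2 and Tyms have none and stood 7.24-fold and 5.82-fold higher in unbound.

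The genes that start the loaded helicase all read lower in TRAP, mostly by less than 2-fold. Their 6 differences ran from -1.57 to -0.57, with a median of -0.83. Gins1, a subunit of the 4-protein GINS complex, read 5.39 in TRAP and 6.96 in unbound, which is 2.97-fold higher, and both values are low. The other GINS genes differed by less. Gins3 read 6.76 and 7.68, Gins2 read 7.67 and 8.36, and Gins4 read 8.23 and 8.80. Cdc45, the partner of GINS in the active helicase, read 6.84 and 7.57. Mcm10, which acts in firing the helicase and is not part of the ring, read 6.42 and 7.46, a 2.05-fold difference that stayed past 2-fold in none of the other 3 scalings. All 6 differences kept a negative sign under each scaling.

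**Figure D2:**
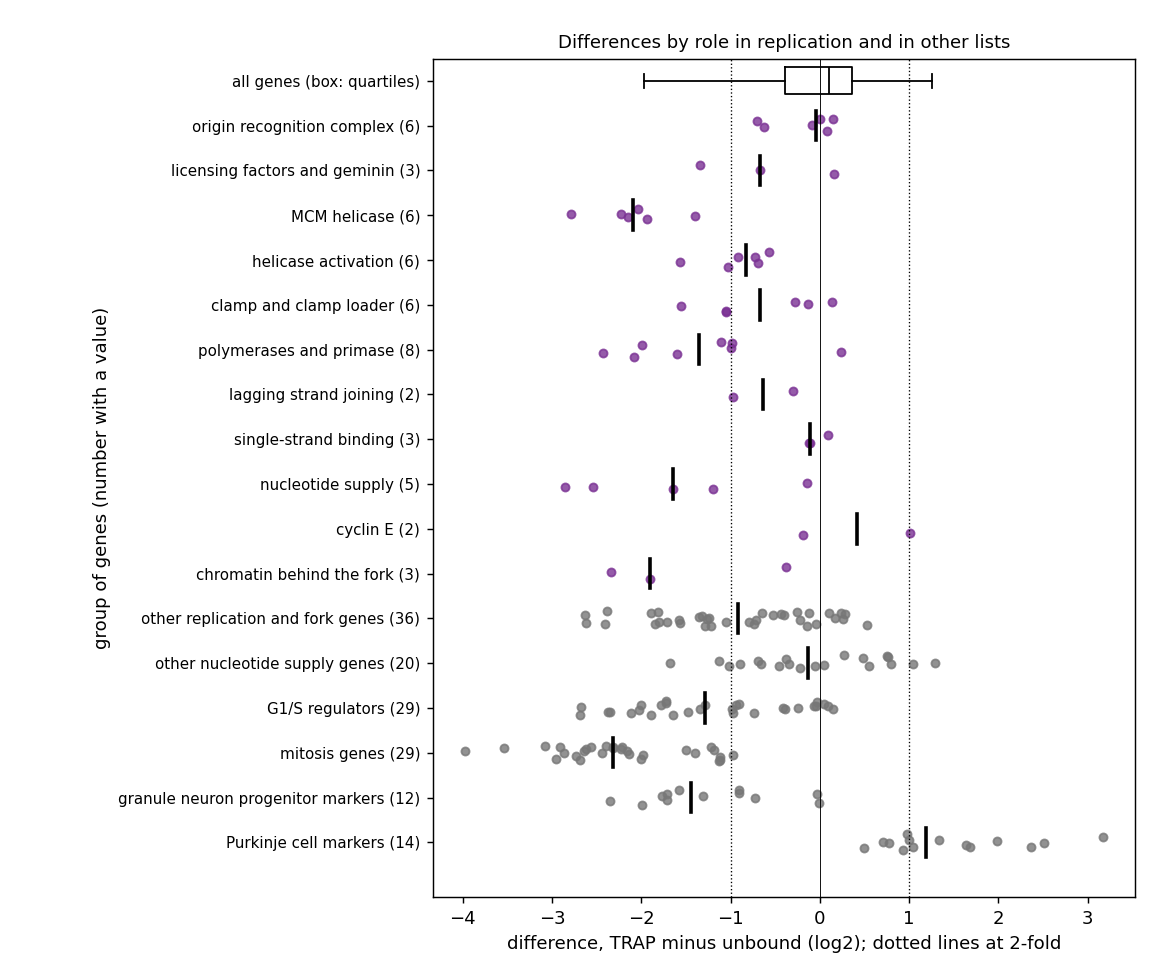
Difference, TRAP minus unbound on the log2 scale (horizontal axis), of each gene (points) by role in replication (purple) and in other lists (grey), with a black bar at each median; the box shows the quartiles of all genes, with whiskers over the central 95%. The MCM helicase genes lie wholly below -1, as do all but 1 of the mitosis genes, while the origin recognition and single-strand binding genes lie around 0 and the Purkinje cell markers above it.

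The sliding clamp and its loader split by subunit. Pcna, the clamp that tethers polymerases to DNA and also serves repair, read 10.18 in TRAP and 11.23 in unbound. That 2.07-fold difference came out alike in its 2 probe sets, -1.06 and -1.05, and fell short of 2-fold (-0.72) with the array medians subtracted. Of the loader genes, Rfc4 read 7.60 and 9.15, a 2.93-fold difference, and Rfc3 read 6.80 and 7.86. The large subunit gene Rfc1 read 8.43 and 8.71, Rfc5 read 9.59 and 9.73, and Rfc2 read 9.26 and 9.12. Rfc4 passed 2-fold under all 4 scalings, whereas Rfc1, Rfc2 and Rfc5 stayed within 2-fold under each, so the 5 genes of 1 complex did not share a difference.

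Subunits of the same polymerase often differed from each other. Of the 8 genes, 5 were 2-fold or more higher in unbound, and the median was -1.36. Prim1, the catalytic primase subunit that makes the RNA primer, read 6.59 in TRAP and 9.01 in unbound, which is 5.37-fold higher, while its partner Prim2 read 8.20 and 9.19, just short of 2-fold. The polymerase epsilon genes Pole, the catalytic subunit of the leading strand enzyme, and Pole2 read 5.93 and 8.02, and 5.14 and 7.14. Both were about 4-fold higher in unbound (4.25-fold and 3.99-fold). Pola1, the catalytic subunit of polymerase alpha, read 5.22 and 6.82, and Pola2 read 7.86 and 8.97. For polymerase delta, which copies the lagging strand, the catalytic Pold1 read 6.86 and 7.85, just short of 2-fold. Its accessory subunit Pold2 read 9.35 and 9.12, and was the only gene of the 8 with the higher value in TRAP, under each scaling.

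The single-strand binding genes lay near equality, and the Okazaki fragment genes stayed within 2-fold. Replication protein A, needed wherever DNA is single-stranded, has 3 subunit genes in the set. Rpa1 read 8.68 in TRAP and 8.80 in unbound, Rpa2 read 8.18 and 8.30, and Rpa3 read 8.23 and 8.14. None differed by more than 0.12 as deposited, and their median of -0.11 rose above 0 with all 3 other scalings. Fen1, the nuclease that trims Okazaki fragments, read 7.84 and 8.15. Lig1, the ligase that seals them, read 7.27 and 8.25, a 1.97-fold difference that stayed under 2-fold in every scaling.

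Of the 5 nucleotide supply genes, 4 were 2-fold or more higher in unbound. Rrm2, the S-phase subunit of ribonucleotide reductase, read 6.95 in TRAP and 9.80 in unbound, which is 7.24-fold higher. As deposited this was the largest difference of the 50 genes, while after quantile normalization Rrm2 and Mcm3 both stood at -2.65. Rrm1, its large subunit, read 8.24 and 9.88, a 3.13-fold difference. Tyms, thymidylate synthase, read 6.46 and 9.00, a 5.82-fold gap. These 3 genes passed 2-fold under each scaling. Dut, the dUTPase that keeps uracil out of DNA, read 9.49 and 9.64, a difference whose sign depends on the scaling. Tk1, the thymidine kinase of S phase, has 2 probe sets that disagree. One read 5.77 in TRAP and 7.88 in unbound, a difference of -2.12, and the other read 7.72 in TRAP, a difference of -0.28. Their mean of -1.20 therefore stands for neither, and with the brighter probe set alone Tk1 was not 2-fold apart.

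Of the cyclin E genes, Ccne1 had the highest difference of the 50 genes and Ccne2 lay near equality. Cyclin E activates CDK2 at the entry into S phase, and cyclin E1 is also known from postmitotic neurons, where it binds Cdk5. Ccne1 read 9.49 in TRAP and 8.48 in unbound. At 2.01-fold higher in TRAP it was the only replication gene past 2-fold in that direction, just over the line as deposited and past it under each of the other scalings, at 1.11 to 1.34. Its difference was larger than that of 95.5% of all genes. Ccne2 read 8.02 and 8.21, nearly equal values whose order depends on the scaling. By comparison their kinase partner Cdk2 read 7.20 and 9.57, a 5.17-fold higher level in unbound.

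Of the genes that restore chromatin behind the fork, Uhrf1, which recruits the maintenance DNA methyltransferase to hemimethylated DNA, read 6.47 in TRAP and 8.81 in unbound, which is 5.06-fold higher. Chaf1b, a subunit of the histone chaperone CAF-1, read 6.58 and 8.48, a 3.74-fold difference. Both passed 2-fold under each scaling. Chaf1a, the large CAF-1 subunit, read 7.09 and 7.47, which is 1.31-fold.

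**Figure D3:**
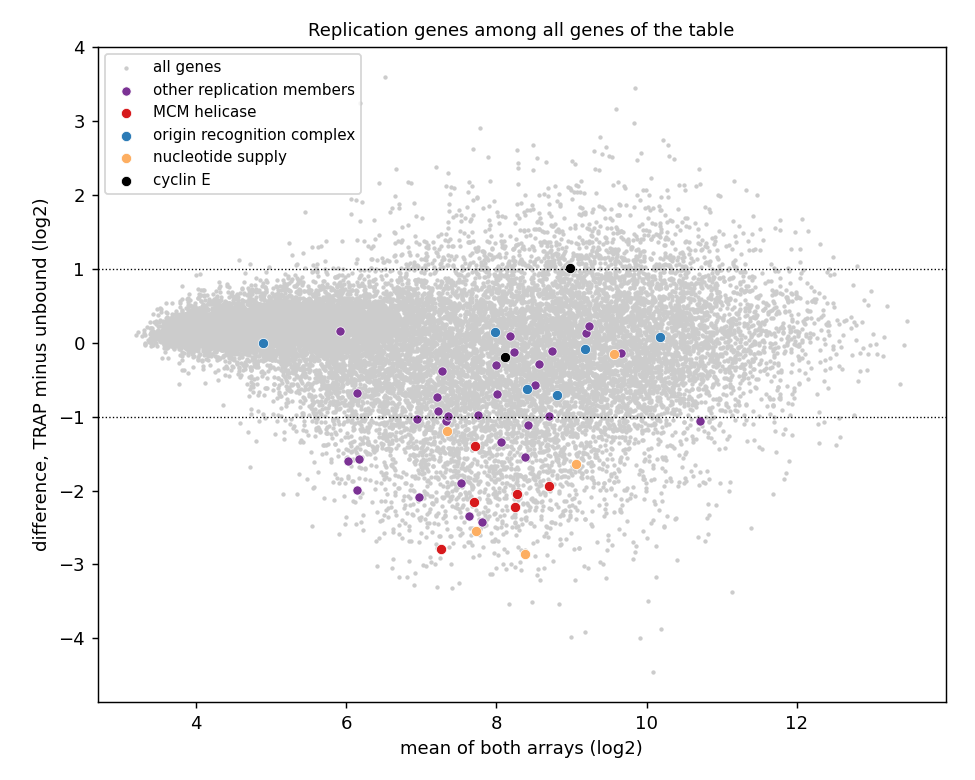
Difference, TRAP minus unbound on the log2 scale (vertical axis), against the mean of both arrays (horizontal axis) for all 19503 genes (grey) and the 50 replication genes (coloured by role); dotted lines mark 2-fold. Differences of all genes are narrow at low levels, where Orc1 and Gmnn lie, and the MCM genes lie among the lowest differences at intermediate levels.

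Genes of the same pathway outside the 50, listed with earlier results of these data known, gave a similar share. Of 36 other replication and fork genes with a value, 18 were 2-fold or more higher in unbound and 0 in TRAP. The shares of all genes were 11.0% and 4.58%, and the median of the 36 genes was -0.92. Ticrr, which helps to start origins, read 5.75 in TRAP and 8.38 in unbound, Pclaf, a PCNA-binding protein gene, read 7.37 and 9.99, and the checkpoint kinase gene Chek1 read 5.28 and 7.68. At the other end stood Pole4 (10.68 and 10.15), Rnaseh2a (8.52 and 8.24) and Pole3 (9.95 and 9.69). Pole3 and Pole4 encode the small histone-fold subunits of polymerase epsilon. Their differences of 0.25 and 0.53 contrast with -2.09 and -1.99 for Pole and Pole2, subunits of the same enzyme.

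Among 29 regulators of the G1 to S transition, 15 were 2-fold or more higher in unbound and 0 in TRAP. The shares of all genes were 11.0% and 4.58%, and the median of the regulators was -1.29. Rbl1, encoding the pocket protein p107, read 5.05 in TRAP and 7.73 in unbound, and Ccna2, cyclin A2, read 8.15 and 10.82. The activator genes E2f1 and E2f2 were 3.30-fold and 2.78-fold higher in unbound, whereas E2f3 read 9.01 and 9.06. Nearly equal values were found for Rbl2 (9.12 and 8.98), the repressor E2f4 (10.23 and 10.14) and the inhibitor Cdkn2d (10.26 and 10.21). Ccnd1, cyclin D1, which also stands on the progenitor list below, read 7.68 and 10.03.

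Mitosis genes were shifted more evenly than replication genes. Of 29 with a value, 28 were 2-fold or more higher in unbound, and their median was -2.32, against 23 of 50 and -0.98 for the replication genes. The share of all genes was 11.0%. Plk1, the polo-like kinase of mitosis, read 6.79 in TRAP and 9.87 in unbound, Top2a, the topoisomerase of mitotic chromosomes, read 7.33 and 9.94, and Mki67, the proliferation marker, read 7.75 and 10.15. The exception, Mad2l1 of the spindle checkpoint, read 8.33 and 9.31. The spread of the replication genes reached from that of mitosis genes, for the MCM ring, to equality, for the origin recognition complex. On the TRAP array, 8 of the 29 mitosis genes lay above the median of all values, against 29 of the 50 replication genes. Folds from TRAP values under it are uncertain in size. With 1 array per fraction the difference between the 2 lists was not tested.

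Most marker lists of other cerebellar cell types also read higher in unbound, where 11.0% of all genes passed 2-fold. Of 12 granule neuron progenitor markers, 7 were 2-fold or more higher in unbound and 0 in TRAP; their median was -1.45. Their summed signal on the linear scale was 5644 in TRAP and 10304 in unbound, a sum weighted to bright genes such as Sfrp1 (10.88 on both arrays) and Mycn (10.10 and 10.14), which did not differ by 2-fold. Atoh1, whose transcription factor specifies the lineage of these progenitors, read 7.31 and 9.30, and Barhl1 read 9.59 and 10.50. Gli1, a target of Sonic hedgehog signalling, read 7.13 and 7.86. Postmitotic granule neuron markers were 2-fold or more higher in unbound in 11 of 12 cases, with summed signals of 11747 and 35976. So were 10 of 11 oligodendrocyte lineage markers (2395 and 8649), 9 of 12 astrocyte and Bergmann glia markers (16399 and 24786) and 4 of 6 inhibitory interneuron markers (898 and 3698). Among the astrocyte and Bergmann glia markers, 10 were lower in TRAP. Aldoc (12.97 in TRAP and 12.03 in unbound) and Hopx (10.36 and 9.42) were higher there, and bright genes such as Aldoc weigh most in that sum. For microglia the count was 2 of 9 markers (577 and 893) and for endothelial and mural cells 3 of 8 (637 and 1571), and 0 and 1 of these markers lay above the median of all values on both arrays. The 14 Purkinje cell markers summed to 68431 in TRAP and 32685 in unbound. The lowest value in the table is 3.15, so a marker at 0 cannot occur on this scale. The part of each cell type in the replication gene differences was not tested.

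**Figure D4:**
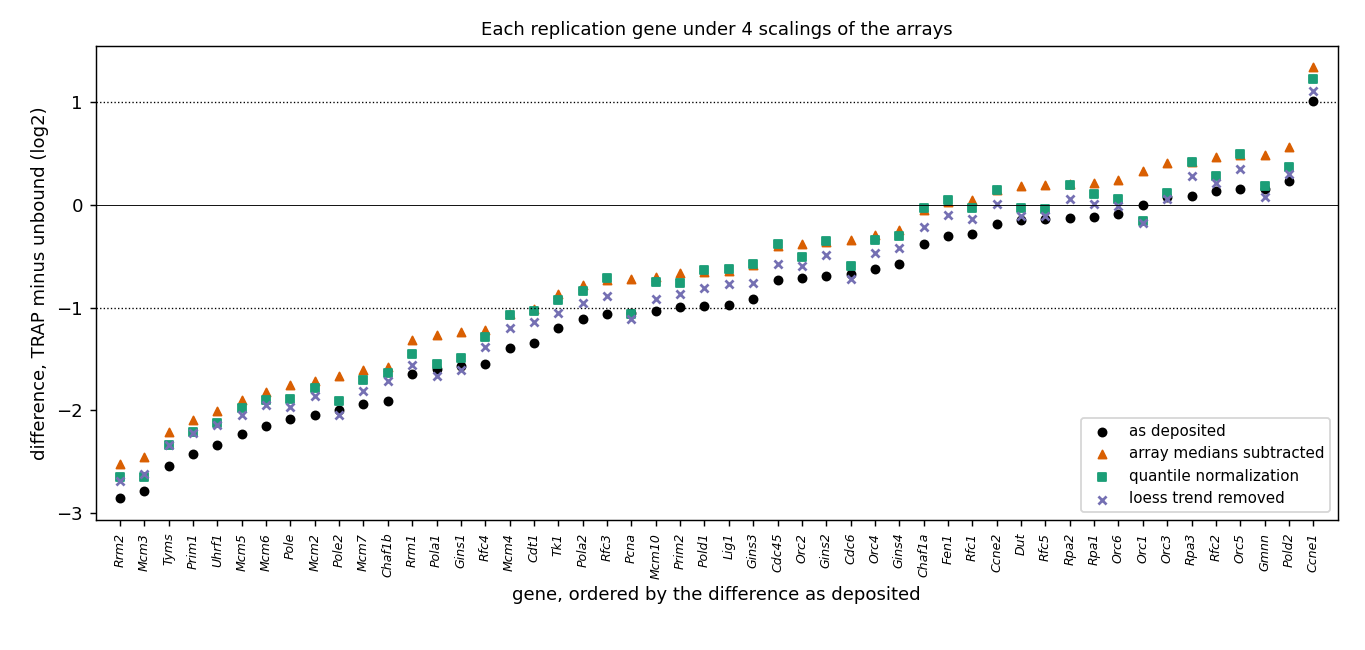
Difference, TRAP minus unbound on the log2 scale (vertical axis), of the 50 replication genes (horizontal axis, ordered by the deposited difference) under 4 scalings of the arrays; dotted lines mark 2-fold. Genes from Rrm2 to Cdt1 stay below -1 under every scaling, Ccne1 stays above 1, and genes between Fen1 and Orc1 cross or touch 0.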

How the data were processed

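The 2 samples are 1 TRAP and 1 unbound RNA of pooled cerebella. The authors deposited log2 values from Affymetrix Power Tools, as the submitters' processing notes name it; none of version, background correction, normalization and genome build is given in the sources used here. Their log base is unstated and was taken as log2, because natural logs would put the highest value at a signal of 847885, above the 65535 of a 16-bit scanner. The number of arrays limits the precision. Of 22097 probe sets, 20999 name 1 gene in the platform annotation, 1007 have no name here, and 91 with several genes were not used. Probe sets were averaged per gene (19503 genes, 18716 from 1 probe set) with pandas 2.3.3, without a filter on level. Every symbol of the 50 genes matched RefSeq (GRCm38.p6) by Entrez identifier. Loess used statsmodels 0.14.6 with a span of 0.3. With 1 array per group no test was run, and a fixed size of 2-fold was used.

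The members and lists were chosen with earlier results of these data known. All 50 members may be named; of other lists, up to 3 genes from each end and the defining genes are named. The E2F words were chosen after the values were seen. The alternatives were 3 other scalings, 3 filters on level (1 added after the data were seen), 2 ways of handling several probe sets and thresholds of 1.5-fold and 4-fold. The calculations were tested on simulated data.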

Additional observations from a re-analysis of the deposited data

How the results depend on the processing

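With a threshold of 4-fold, 9 of 50 replication genes were higher in unbound and 0 in TRAP, against 2.37% and 0.4% of all genes. Higher in unbound at that size were 4 of 36 other replication and fork genes, 7 of 29 G1/S regulators and 20 of 29 mitosis genes. A stricter threshold counts fewer genes by construction. Both arrays were also required above the median of all values, an alternative chosen after seeing the data. There 8 of 29 replication genes were 2-fold or more higher in unbound and 1 in TRAP, against 13.0% and 7.94% of all genes. Toward unbound the counts were 7 of 17 other replication and fork genes, 10 of 24 G1/S regulators and 7 of 8 mitosis genes. Fewer genes enter this filter by construction, and the median of the 29 was -0.38. Under the 3 other scalings, the other 2 filters on level, the 2 choices of probe set and 1.5-fold, the count of replication genes higher in unbound stayed between 18 and 32 and the count in TRAP at 1. Over the scalings, the filter on mean level and 1.5-fold, the share of all genes ran from 6.8% to 19.5% toward unbound. Toward TRAP it ran from 5.31% to 12.5%. For the filter that asks for 1 array above the median of all values and for the 2 choices of probe set, no such share was computed. The median difference of the replication genes ran from -0.99 to -0.63 over the same scalings, filters and probe set choices, under 2-fold in each. Single replication genes that fell below 2-fold numbered 5 with the array medians subtracted, 4 after quantile normalization, 3 without the loess trend and 1 with the brightest probe set, and none that was 2-fold apart changed sign. No paired analysis was possible because each group holds 1 array, and for the same reason no replicate could be left out. Without detection calls or a measure of background, it is not known whether TRAP values under the median of all values stand above background. That median marks low level only. The folds of 21 replication genes are therefore uncertain in size, Rrm2, Mcm3, Mcm6, Tyms, Prim1, Pole, Pole2, Uhrf1 and Chaf1b among them.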

Other observations

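Nucleotide supply genes outside the 50 were mixed in direction, with 11 lower and 9 higher in TRAP. Of 20 with a value, 3 passed 2-fold toward unbound and 2 toward TRAP, against 11.0% and 4.58% of all genes; the median difference of -0.14 was 0.20 with the array medians subtracted. Ctps2, a CTP synthase gene, read 7.26 in TRAP and 8.94 in unbound, Samhd1, which degrades deoxynucleotides, read 7.55 and 8.68, and Shmt2, of mitochondrial folate metabolism, read 8.67 and 9.69. The nucleoside diphosphate kinase gene Nme2 read 11.19 and 9.90, Dctd, deoxycytidylate deaminase, read 10.45 and 9.41, and Impdh1, of guanine nucleotide synthesis, read 9.49 and 8.70. With the array medians subtracted, 1 gene passed 2-fold toward unbound and 5 toward TRAP, against 6.8% and 10.1% of all genes.

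Isoforms that make deoxynucleotides outside S phase, singled out after their values were seen, differed from their S-phase counterparts. Rrm2b, the small reductase subunit known for repair and mitochondrial DNA synthesis, read 8.08 in TRAP and 8.13 in unbound, against 6.95 and 9.80 for Rrm2. Tk2, the mitochondrial thymidine kinase, read 8.89 and 8.14, while both Tk1 probe sets read lower in TRAP. The differences between the isoforms were not tested.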
